A study of Mus musculus with 6 samples.

Results

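A clone was taken here as 1 combination of V gene, J gene and CDR3 base sequence of the mouse immunoglobulin heavy chain locus, and a recurring clone as one found in 2 or more of 6 VDJ-seq libraries. The 6 libraries held 228592 sequences with a CDR3, which formed 222837 clones. Of these, 1741 clones (0.781%) recurred and carried 5834 sequences (2.55% of the sequences), and the other 221096 clones were found in 1 library. The members were chosen by their presence in the libraries, so the number of libraries and the number of copies of a clone are given as descriptions. VDJ-seq reads rearranged V, D and J segments from genomic DNA, so that rearrangements that cannot make a protein are counted beside those that can.

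All 6 libraries came from spleens of C57BL/6 mice at 12 weeks of age, with B cells enriched by magnetic removal of other cells. The libraries labelled 500 ng, 1 µg, 2.5 µg and 5 µg differed in the amount of input DNA, and those labelled Q5_vent and Q5_Q5 differed in the combination of DNA polymerases. Each group is 1 library, so no test between groups was possible, and the labels do not say whether the libraries came from the same mouse, cells or DNA extract. The libraries held 8704 to 112320 sequences each, counted after merging by molecular identifier, a random tag of 12 bases. All intervals below are 95% intervals. Those of counts, shares and ratios cover counting error only. Those of differences in means cover the spread over clones, taken as independent. Counts of libraries with the same direction are not independent, because libraries share the recurring clones.

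A heavy chain CDR3 spans the joint of V, D and J segments. Exonucleases trim the segment ends, and terminal deoxynucleotidyl transferase (TdT) adds untemplated bases, which makes most joints differ between cells. TdT is scarce in fetal life, when many B-1 cells arise, and joints made then carry few added bases. B-1a cells that bind phosphatidylcholine use a few V genes, above all Ighv11-2 and Ighv12-3, with a small set of CDR3 sequences. The files give the bases between aligned segments, which hold added bases and any palindromic ones. Where no D segment was called, they also hold any D bases that did not align.

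In all 6 libraries 15 clones were found, and 6 of these had 0 bases between the aligned segments. Those 6 are shown because every base of their CDR3 aligned to a V, D or J segment. Each is the deposited CDR3 from 5′ to 3′ with the bases aligned to the D segment in capitals.
Ighv12-3 to Ighj4: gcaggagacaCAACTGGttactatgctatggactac
Ighv11-2 to Ighj1: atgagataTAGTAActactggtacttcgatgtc
Ighv11-2 to Ighj1, second: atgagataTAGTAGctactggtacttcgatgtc
Ighv12-3 to Ighj1: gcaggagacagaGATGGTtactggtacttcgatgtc
Ighv2-6-1 to Ighj1: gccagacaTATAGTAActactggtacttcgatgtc
Ighv10-1 to Ighj4: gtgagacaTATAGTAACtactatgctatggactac
The Ighv11-2 and Ighv12-3 clones were productive and encoded MRYSNYWYFDV and MRYSSYWYFDV (both Ighv11-2), AGDRDGYWYFDV (Ighv12-3 to Ighj1) and another CDR3 of 12 amino acids (Ighv12-3 to Ighj4). The Ighv2-6-1 and Ighv10-1 clones were out of frame, although they too had 0 bases between segments. They shared the 18-base stretch agacatatagtaactact with each other. With both of them counted, 3 of 1741 recurring clones and 3 of 221096 single-library clones held it. The stretch was taken from recurring clones, so their count is partly set by that choice.

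The other 9 clones in all 6 libraries had 1 to 14 bases between segments. The 3 with the most sequences are shown with those bases in capitals. The first was out of frame and the other two were productive.
Ighv2-6 to Ighj1: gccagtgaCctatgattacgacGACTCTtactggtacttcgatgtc
Ighv1-36 to Ighj4: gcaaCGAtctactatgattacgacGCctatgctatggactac
Ighv5-15 to Ighj4: gcaagacaTGGGGGTTCtgctatggactac
The Ighv2-6 clone had 7 bases between segments, the Ighv1-36 clone 5, and the Ighv5-15 clone, which had no D call, 9. On GRCm38, Ighv2-6 lies on chr12:113716672-113716962, at the D-proximal end of the V gene cluster, and Ighv1-36 on chr12:114879888-114880181, farther from the D genes.

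Together the 15 clones held 1044 sequences, which were 17.9% of the sequences of recurring clones. They took 0.540% of the 500 ng library, 0.498% of the 1 µg, 0.446% of the 2.5 µg, 0.445% of the 5 µg, 0.513% of the Q5_vent and 0.412% of the Q5_Q5 library. The out-of-frame Ighv2-6 clone had 8, 17, 52, 101, 20 and 19 sequences in these libraries in that order, which is 0.0899% to 0.126% of each. The productive Ighv1-36 clone had 8, 17, 43, 92, 17 and 11 sequences, or 0.0732% to 0.0997%. For each clone the highest share was at most 1.41-fold the lowest, over libraries of 8704 to 112320 sequences. The Ighv12-3 to Ighj4 clone had 2, 10, 22, 54, 11 and 5 sequences, and the first Ighv11-2 clone 2, 6, 25, 46, 9 and 4. For 14 of the 15 clones the exact binomial intervals of the share overlapped for every pair of libraries. The exception was the Ighv5-15 clone, at 0.0919% of the 500 ng library (8 sequences, interval 0.0397% to 0.181%) and 0.0214% of the 2.5 µg library (12 sequences, 0.0111% to 0.0374%).

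**Figure D1:**
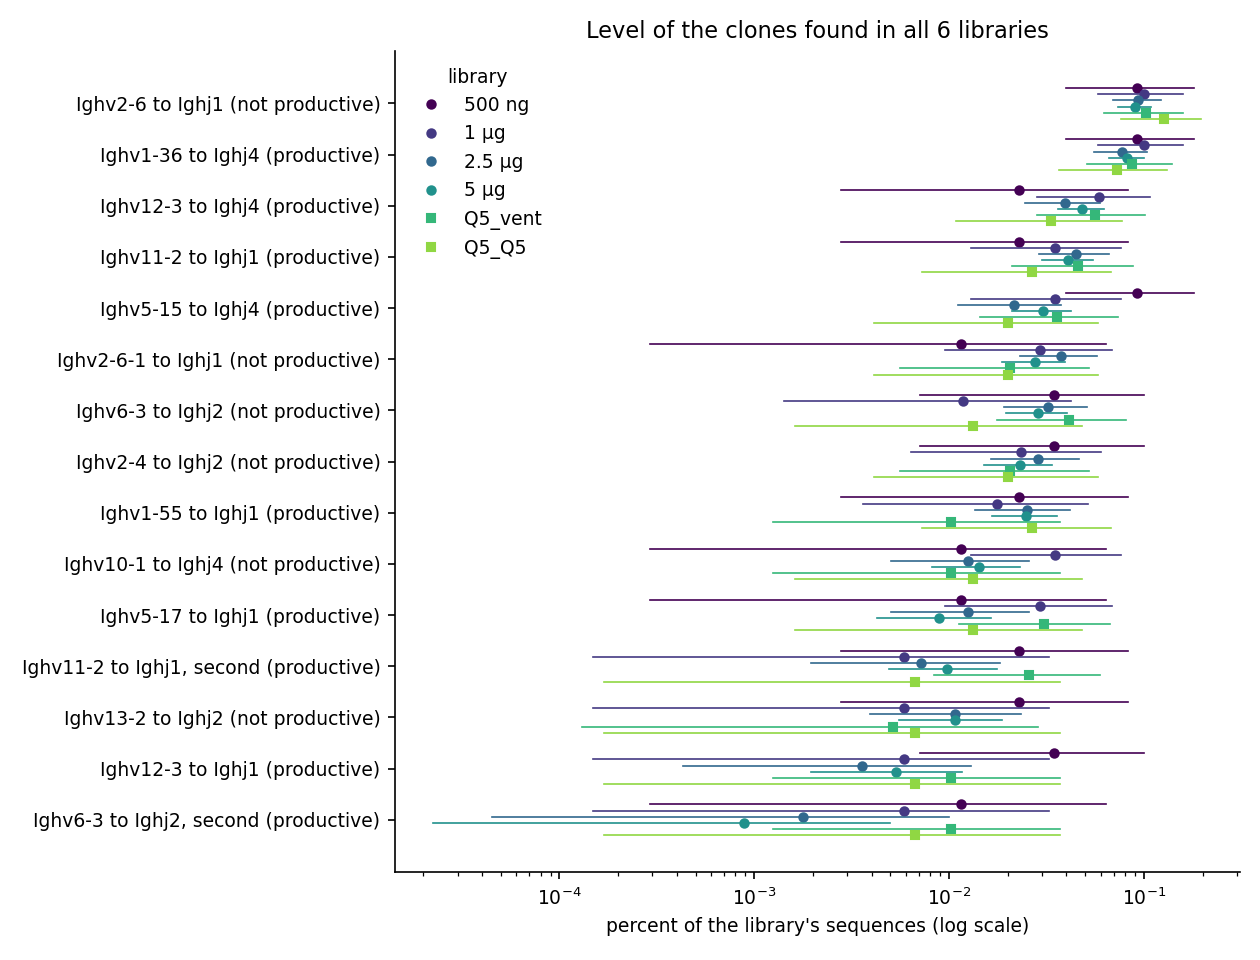
Share of each library's sequences (percent, log scale) held by each of the 15 clones found in all 6 libraries, with exact binomial 95% intervals (circles, input libraries; squares, polymerase libraries). The Ighv2-6 and Ighv1-36 clones lie between 0.0732% and 0.126% in every library, and the intervals widen toward clones with few sequences.

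Of the 15 clones 9 were productive and 6 were not. Within each of the 15 clones every sequence carried its own molecular identifier, 217 different ones for the Ighv2-6 clone and 7 for the smallest clone. Within a library, the merging by identifier would give this by itself, so only identifiers in different libraries are informative. The sequences of 1 clone also started at different places in the V segment, at 126 places for the Ighv2-6 clone. Over all recurring clones, 48668 pairs of sequences of the same clone lay in different libraries, and 0 of these pairs had the same identifier, which allows a share of up to 0.00616%. This limit treats the pairs as independent, although each sequence of a large clone enters many pairs, so large clones weigh most in it. Identifiers 1 base apart were also found in 0 of these pairs. The libraries shared clones, but no such pair had the same or nearly the same tag. Within a library, 24 of 2530 sequences of recurring clones with several copies (0.949%) had an identifier within 1 base of another of the same clone.

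Most recurring clones were small. In exactly 2 libraries 1457 clones were found, in 3 libraries 185, in 4 libraries 63 and in 5 libraries 21. At most 1 copy per library was seen for 1341 of the 1741 clones. Recurring clones numbered 249 of 8615 clones (2.89%) in the 500 ng library, 403 of 16844 (2.39%) in that of 1 µg, 1053 of 55192 (1.91%) in the library of 2.5 µg, 1359 of 110143 (1.23%) in that of 5 µg, 472 of 19270 (2.45%) in the Q5_vent library and 380 of 14948 (2.54%) in the Q5_Q5 library. The share was lowest in the largest library and highest in the smallest. The count rests on the 2 largest libraries: without the 5 µg library 641 clones recurred, and without the 2.5 µg library 921.

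The 2 sides of the threshold had like shares of productive clones and of Ighj1, and differed in other measures. Clones in exactly 2 libraries were productive in 69.0% and had 0 bases between segments in 5.22%, used Ighj1 in 22.5%, Ighv11-2 or Ighv12-3 in 2.88% and Ighv5-2 in 5.42% (4.37% to 6.71%). The 1601 single-library clones with 2 or more copies were productive in 69.8% and had 0 bases between in 3.25%, used Ighj1 in 22.5%, Ighv11-2 or Ighv12-3 in 1.87% and Ighv5-2 in 3.12% (2.38% to 4.09%). Of the 1553 single-library clones with exactly 2 copies, however, 872 (56.1%) had identifiers 1 base apart, and 61.1% had the same V start, against 5.62% with the same V start among the 1264 recurring clones with 2 copies.

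Clones that recurred among some libraries were also found more often in the others. Of the 1175 clones found in 2 or more input libraries, 206 (17.5%, interval 15.5% to 19.8%) were found in a polymerase library, against 539 of 188269 clones (0.286%, 0.263% to 0.311%) found in 1 input library, a ratio of 61.2 (52.7 to 71.1). In the other direction, 53 of the 80 clones found in both polymerase libraries (66.3%, 55.4% to 75.7%) were in an input library, against 692 of 34058 (2.03%) found in 1 polymerase library. Among clones with at most 1 copy per library, the shares were 53 of 835 (6.35%) against 479 of 186713 (0.257%) for polymerase libraries. Here the ratio was 24.7 (18.8 to 32.6). The limit of 1 copy was applied to all libraries, so also to the polymerase libraries in which clones were counted. A larger clone has more chances to be in any library, so the grouping itself raises the share of clones found again. How much of these ratios this makes was not tested.

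How large the overlap between libraries was depended on how it was counted. The number of shared clones ran from 51 (500 ng and Q5_Q5) to 776 (2.5 µg and 5 µg). Per 100000000 possible pairs of clones it ran from 12.8 (2.5 µg and 5 µg, 11.9 to 13.7) to 44.8 (500 ng and 1 µg, 34.6 to 57.1). Per 100000000 possible pairs of sequences, 260 to 319 pairs were of the same clone. Without the 15 clones found in all libraries the range over the 15 pairs of libraries was 30.4 to 43.1, and 9.43 to 17.6 of these were pairs of clones with 7 or more bases between segments. The Q5_vent and Q5_Q5 pair, at 287, 30.4 and 10.6 on these 3 measures, and the 2.5 µg and 5 µg pair, at 260, 32.9 and 11.1, stood beside pairs of 1 input with 1 polymerase library at 263 to 319, 30.7 to 34.6 and 9.43 to 17.6. On the second measure, without the 15 clones, 3 pairs of input libraries lay above that range, at 43.1 (500 ng and 1 µg), 36.9 (500 ng and 2.5 µg) and 36.0 (1 µg and 2.5 µg).

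**Figure D2:**
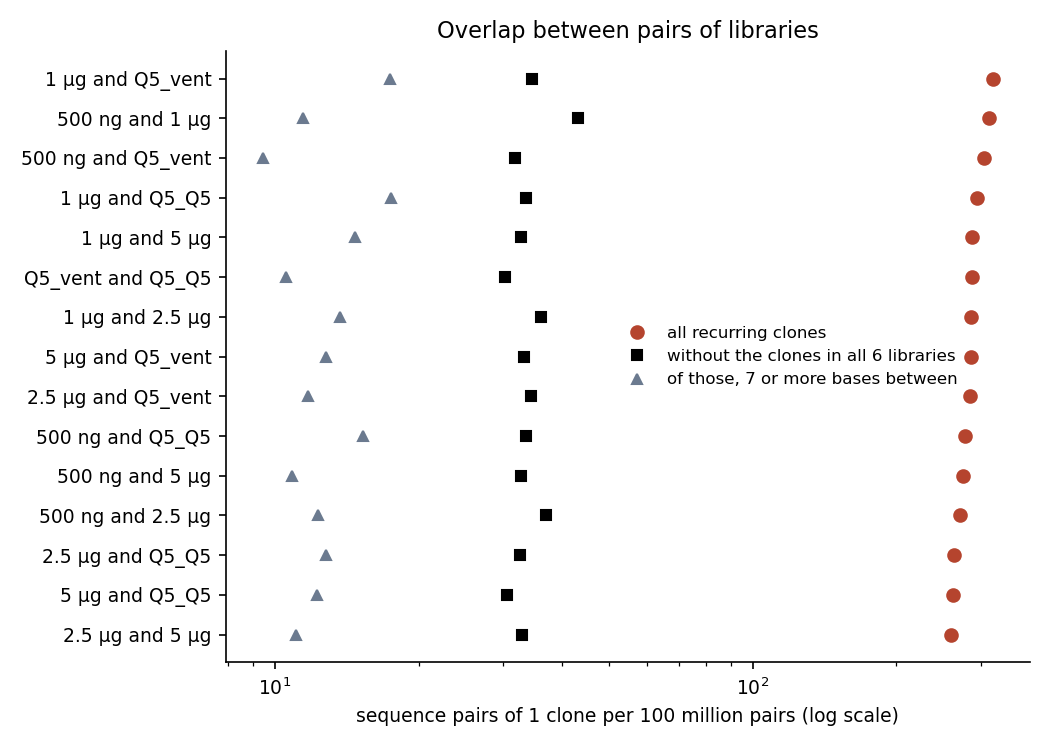
Pairs of sequences of the same clone per 100000000 possible pairs of sequences (log scale) for the 15 pairs of libraries. Circles are all recurring clones (260 to 319), squares leave out the 15 clones found in all libraries (30.4 to 43.1), and triangles keep of those the clones with 7 or more bases between segments (9.43 to 17.6).

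V gene use differed between recurring and single-library clones. Of 73 V genes with at least 1000 clones, 9 (12.3%) had a share of recurring clones at least 1.5-fold higher than their share of single-library clones with the interval of the ratio excluding 1, 9 (12.3%) a share at least 1.5-fold lower, and so 24.7% either. This describes V genes in these libraries, without a test, since clones are not replicates of a condition. The higher genes included 3 of the Ighv5 family and 2 of the Ighv2 family, which lie nearest to the D genes, while 8 of the 9 lower genes belonged to Ighv1, the large family of the distal part of the cluster. Of the 73 genes compared, 7 were of Ighv5, 4 of Ighv2 and 38 of Ighv1, of which 1 was among the higher genes. The number depends on depth: 8 V genes passed without the 2.5 µg library and 6 without the 5 µg library, where 58 and 39 V genes had enough clones to be compared.

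Ighv12-3 (chr12:114366526-114366819, GRCm38) had the highest ratio among the compared genes. It was the V gene of 58 recurring clones (3.33%) and of 1529 single-library clones (0.692%), a ratio of 4.82 (3.72 to 6.24). Ighv11-2 (chr12:114048241-114048704), which had too few clones for the rule, had 22 (1.26%) and 688 (0.311%), a ratio of 4.06 (2.66 to 6.19). In their use the split by frame was wide: 45 of 58 recurring Ighv12-3 clones were productive, against 10.1% of its single-library clones, and 18 of 22 recurring Ighv11-2 clones, against 16.4%. Among productive clones both genes made up 5.22% of recurring and 0.165% of single-library clones, a ratio of 31.7 (24.3 to 41.5), and among non-productive clones 3.18% and 3.32%, a ratio of 0.960 (0.600 to 1.54).

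The share of these V genes among recurring clones was 9.64% (500 ng), 7.69% (1 µg), 5.03% (2.5 µg), 5.22% (5 µg), 7.20% (Q5_vent) and 5.53% (Q5_Q5). In the single-library clones of the same libraries it was 0.932%, 1.11%, 0.975%, 1.03%, 0.899% and 0.913%. The groups did not overlap, although the 6 values are not independent because libraries share the recurring clones. Over all clones the ratio was 4.58 (3.68 to 5.70), and it was 7.07 without the 5 µg library and 2.39 among clones with at most 1 copy per library.

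All 18 productive recurring Ighv11-2 clones used Ighj1, against 61 of 113 productive single-library clones. Of the 45 productive recurring Ighv12-3 clones 35 used Ighj1, against 62 of 154, and 44 had a CDR3 of 36 bases, against 111 of 154. Their joints had fewer bases between segments. The mean was 2.39 bases in recurring and 5.74 in single-library productive Ighv11-2 clones, and 2.29 and 4.80 in Ighv12-3 clones. Of the 84 clones in 4 or 5 libraries, 68 were productive, and Ighv12-3 with 10 clones and Ighv11-2 with 9 were their most frequent V genes.

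**Figure D3:**
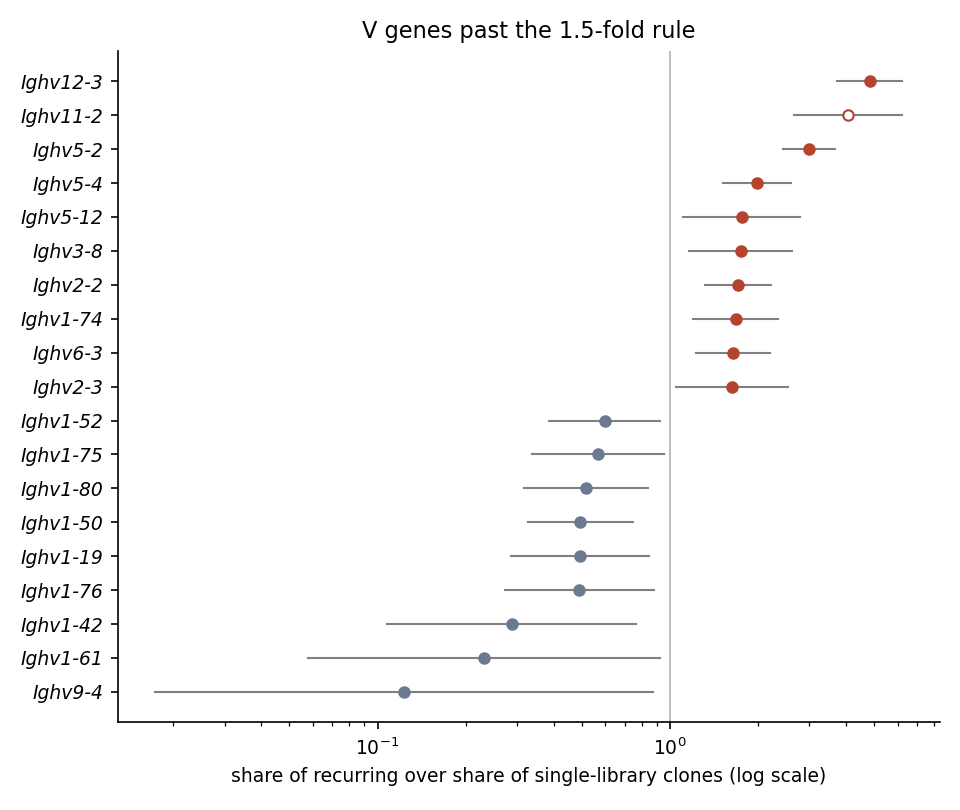
Ratio of the share of recurring clones over the share of single-library clones (log scale) with Katz 95% intervals, for the 18 V genes past the 1.5-fold rule and for Ighv11-2 (open circle), which had under 1000 clones. Ighv12-3 at 4.82 and Ighv5-2 at 2.99 lead the compared genes, and Ighv9-4 at 0.123 is lowest.

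Ighv5-2 (chr12:113578504-113578990), one of the V genes nearest to the D genes, was also higher among recurring clones but was rarely productive in either set. It was used by 87 recurring clones (5.00%) and by 1.67% of single-library clones, a ratio of 2.99 (2.43 to 3.68). Of the 87, 1 was productive (interval 0.203% to 6.23%), against 5.08% (4.42% to 5.84%) of its single-library clones, so these intervals overlapped. The recurring clones of this gene were thus nearly all rearrangements that make no heavy chain. Its share was higher among recurring clones in 6 of 6 libraries, by 2.43-fold to 3.15-fold.

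Several other V genes that were higher among recurring clones were also less often productive there. Ighv5-4 had 52 recurring clones (ratio 1.99, 1.52 to 2.60), of which 23 were productive, against 62.1% of single-library clones. Ighv2-2 had 56 (ratio 1.71, 1.32 to 2.22), of which 16 were productive, against 52.6%. Ighv5-12 had 18 (ratio 1.76) with 3 productive, against 52.0%. Ighv3-8 (ratio 1.74) had 9 productive of 23 and Ighv2-3 (ratio 1.63) 7 of 20, against 57.3% and 56.9% of their single-library clones. For Ighv3-8 and Ighv2-3 the intervals of the productive share overlapped. They were 22.2% to 59.2% and 54.9% to 59.7% for Ighv3-8, and 18.1% to 56.7% and 54.5% to 59.4% for Ighv2-3. The exceptions beside Ighv12-3 were Ighv6-3, with 43 productive of 45 recurring clones (ratio 1.65, 1.23 to 2.20), against 84.6%, and Ighv1-74, with 29 of 34 (ratio 1.68), against 85.1%.

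The V genes that were lower among recurring clones were mostly productive in both sets. Ighv1-50 had 22 recurring clones against 5655 single-library clones (ratio 0.494, 0.326 to 0.749), Ighv1-80 had 16 (0.515), Ighv1-52 had 20 (0.599), Ighv1-75 had 14 (0.568), Ighv1-19 had 13 (0.493) and Ighv1-76 had 11 (0.490). The counts of Ighv1-42 (4), Ighv1-61 (2) and Ighv9-4 (1) were so small that their intervals were wide, 0.017 to 0.876 for Ighv9-4. The median productive share among single-library clones was 56.9% over the 9 higher genes, 86.2% over the 9 lower genes and 82.2% over all 73. Among the most used genes, Ighv1-26 with 100 recurring clones (5.74%, against 5.11% of single-library clones) had a ratio of 1.13 (0.929 to 1.36), and Ighv1-64, Ighv3-6, Ighv1-53 and Ighv1-55 had ratios of 1.01 to 1.08 with intervals that included 1. Ighv10-1 (38 clones) stood at 1.44 (1.05 to 1.98), Ighv1-72 at 0.874 (0.635 to 1.20) and Ighv7-1 at 0.701 (0.334 to 1.47).

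By position, the families Ighv1 and Ighv8 of the distal part made up 49.7% of recurring and 62.4% of single-library clones. The proximal families Ighv2 and Ighv5 made up 21.7% and 13.9%, and without Ighv5-2 16.7% and 12.2%. The difference in the proximal families lay with rearrangements that are not productive: they made up 44.8% of non-productive recurring clones and 22.7% of non-productive single-library clones (ratio 1.98, 1.80 to 2.17), but 11.4% and 10.7% of productive ones (ratio 1.07, 0.915 to 1.25). Distal families were lower among recurring clones on both sides, at 31.5% and 48.6% of non-productive and 57.7% and 67.4% of productive clones. Over productive and non-productive clones together, both directions were seen in 6 of 6 libraries.

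Joints of recurring clones had fewer bases between segments. Their mean was 6.54 bases (SD 4.67, n = 1741 clones), against 7.76 (SD 4.06, n = 221096) in single-library clones, a difference of -1.22 (-1.44 to -1.0). Both borders were shorter where a D segment was called, at 3.68 and 4.36 bases between V and D and at 2.77 and 3.30 between D and J. The difference was -1.60 (-1.84 to -1.36) among productive clones and -0.43 (-0.87 to 0.02) among non-productive clones, whose interval included 0.

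Joints with 0 bases between segments were the most enriched class. They made up 6.20% of recurring clones (108 clones) and 1.11% of single-library clones, a ratio of 5.60 (4.65 to 6.75). In the libraries the share among recurring clones was 7.23% (500 ng), 7.20% (1 µg), 7.50% (2.5 µg), 6.18% (5 µg), 7.84% (Q5_vent) and 7.63% (Q5_Q5), and among single-library clones 1.15%, 1.14%, 1.08%, 1.11%, 1.04% and 1.21%. Recurring clones were thus 5.56-fold to 7.56-fold higher in every library, although libraries share many of these clones. The ratio was 7.02 (5.73 to 8.60) among productive and 2.66 (1.66 to 4.27) among non-productive clones, and 5.06 (4.13 to 6.20) without Ighv11-2 and Ighv12-3. The 108 clones used 47 V genes, of which Ighv12-3 (9), Ighv11-2 (7), Ighv1-26 (7) and Ighv3-6 (6) were the most frequent, and 91 were productive.

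Read the other way, the share of clones that recurred was highest with no base between segments. Of clones with 0 bases 4.23% recurred (3.51% to 5.08%), of those with 1 to 3 bases 1.34%, with 4 to 6 bases 0.761%, with 7 to 9 bases 0.618% and with 10 or more 0.600% (0.544% to 0.662%). Between 7 to 9 and 10 or more the intervals overlapped. In productive clones the shares ran from 4.96% at 0 bases to 0.515% at 10 or more, and in non-productive clones from 2.36% to 0.806%. At 0 bases productive clones recurred more often than non-productive ones, and at 7 or more bases less often, with intervals that did not overlap on either side.

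**Figure D4:**
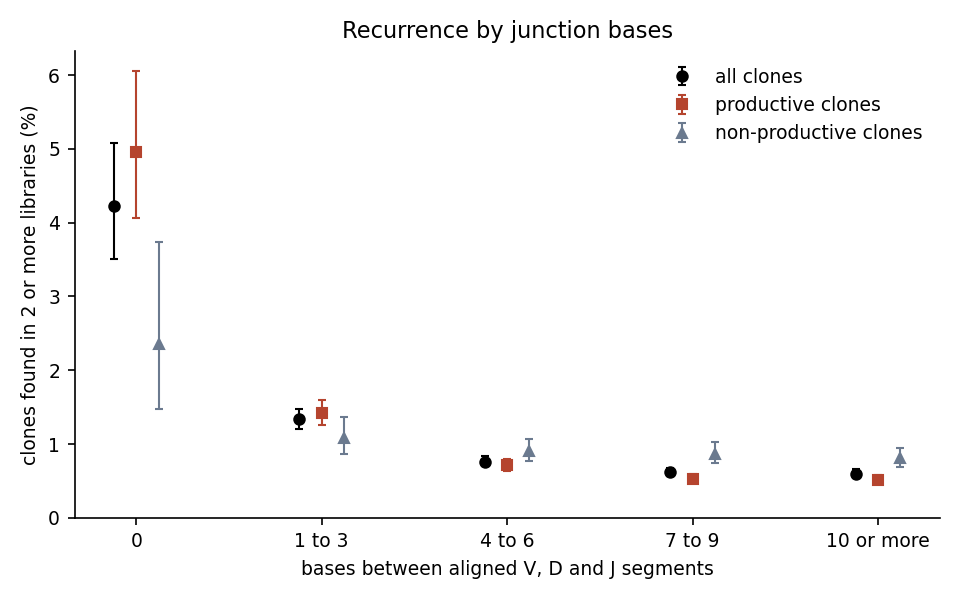
Percent of clones found in 2 or more libraries (y axis) by the number of bases between aligned V, D and J segments (x axis), with Wilson 95% intervals, for all, productive and non-productive clones. Recurrence is highest at 0 bases, at 4.96% of productive and 2.36% of non-productive clones, and is 0.515% and 0.806% at 10 or more.

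At the full depth of the libraries, recurring clones were less often productive than single-library clones. A productive rearrangement is in frame and free of stop codons, and B cells carry a second allele that often holds a non-productive one. Of recurring clones 69.3% were productive (67.1% to 71.5%), against 73.4% of single-library clones (73.2% to 73.6%), a difference of -4.08 percentage points (-6.25 to -1.91). The gap lay in the reading frame, as 73.9% and 77.9% were in frame, while 4.60% and 4.51% were in frame with a stop codon. Recurring clones were productive in 75.9% (500 ng), 70.5% (1 µg), 69.1% (2.5 µg), 68.7% (5 µg), 69.3% (Q5_vent) and 70.0% (Q5_Q5) of cases, and single-library clones in 72.7%, 73.1%, 73.6%, 73.5%, 72.8% and 74.1%. The share was lower in 5 of 6 libraries, and in the 500 ng library it was 3.16 points higher (-2.24 to 8.55).

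This difference changed with depth, with the libraries included and with the definition of a clone. With every library thinned to 8701 sequences, its mean over 100 draws was -0.00806 points. The lowest draw gave -6.33 and the highest 3.66 points. At full depth and without Ighv11-2, Ighv12-3 and Ighv5-2 the difference was -2.60 points (-4.81 to -0.39). Without the 5 µg library it was -2.49 points (-6.02 to 1.04), and without the 2.5 µg library -2.87 (-5.82 to 0.08), with intervals that included 0. When a clone was defined by J gene and CDR3 alone, 3217 clones recurred and the difference turned round, to 8.18 points higher (6.81 to 9.54). The same J gene and CDR3 under another V gene was found for 12.3% of recurring clones and 2.43% of single-library clones.

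Within recurring clones the productive share differed with the joint and with the number of copies in a library. It was 84.3% with 0 bases between segments, 79.7% with 1 to 3, 70.1% with 4 to 6, 63.5% with 7 to 9 and 60.8% with 10 or more, whereas single-library clones stayed between 70.8% and 75.0%. Of recurring clones with 2 or more copies in a library, 74.5% were productive (70.0% to 78.5%). Of those with at most 1 copy per library 67.8% were (65.2% to 70.2%), and the intervals overlapped narrowly. By number of libraries there was no steady order: 69.0% of clones in 2 libraries were productive, 67.0% in 3, 81.0% in 4, 81.0% in 5 and 60.0% of the 15 in all 6. Of the 99 clones in 4 or more libraries 77 (77.8%, 68.6% to 84.8%) were productive.

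**Figure D5:**
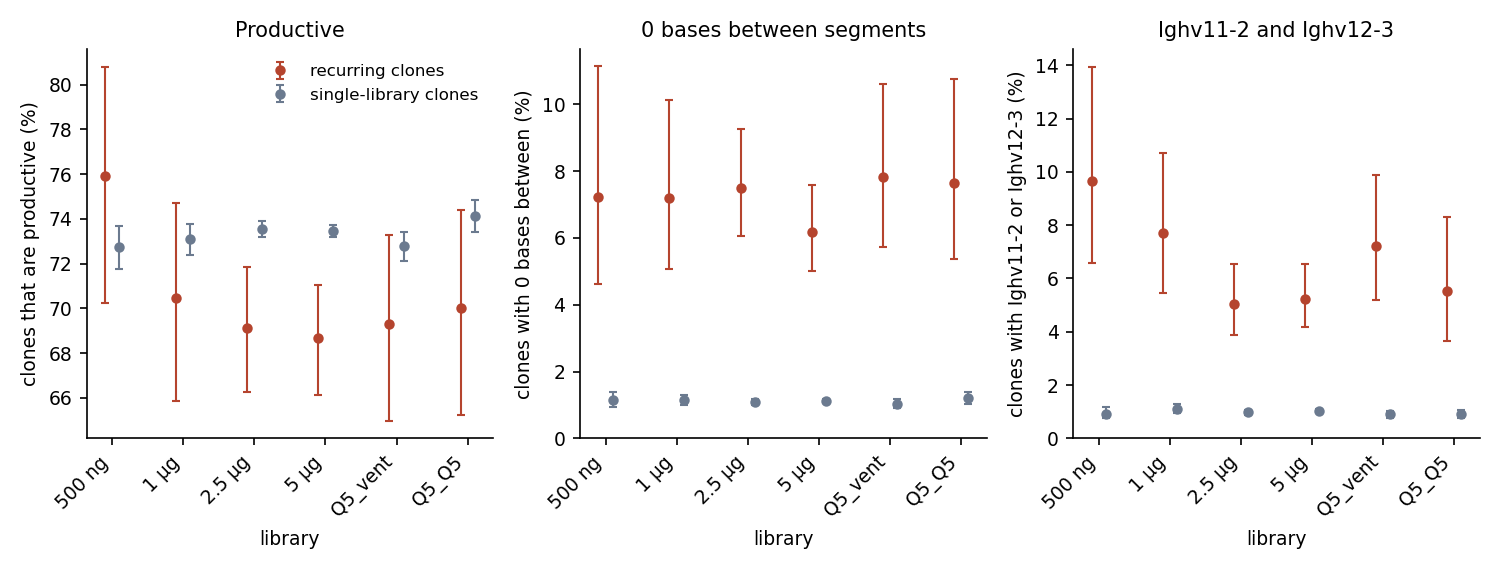
Percent of clones that were productive (left, axis not from 0), that had 0 bases between segments (middle) and that used Ighv11-2 or Ighv12-3 (right) in each library, for recurring and single-library clones, with Wilson 95% intervals. In the middle and right panels the recurring clones lie above the single-library clones in all 6 libraries, and at left they lie lower in 5 of 6.

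The J segment nearest to the D genes was used more often in recurring clones. Ighj1 was used by 24.4% of recurring and 18.5% of single-library clones, a ratio of 1.32 (1.21 to 1.43), and by more of the recurring clones in 6 of 6 libraries. The difference lay with productive clones, of which 28.0% of recurring and 19.4% of single-library clones used Ighj1 (ratio 1.45, 1.32 to 1.58). Among non-productive clones the shares were 16.1% and 16.0% (ratio 1.01, 0.830 to 1.22). Ighj3 was used by 20.8% and 25.2% (ratio 0.827, 0.754 to 0.906) and was lower in 6 of 6 libraries. Ighj2 (29.5% and 29.4%) and Ighj4 (25.4% and 26.9%) had intervals of the ratio that included 1. The use of Ighj1 went with fewer bases between segments. Of recurring clones with 0 bases 50.9% used it, against 30.5% of single-library clones. With 10 or more bases the shares were 11.6% and 14.6%. Without Ighv11-2 and Ighv12-3 the shares at 0 bases were 44.6% (34.8% to 54.7%) and 30.1%, and at 10 or more bases 11.3% and 14.6%.

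D families differed by less than V genes. The DFL16 family was called in 37.0% of recurring and 39.9% of single-library clones (ratio 0.929, 0.874 to 0.988), DSP2 in 42.1% and 41.8%, DQ52, the D gene next to the J genes, in 6.26% and 6.08%, and DST4 in 6.38% and 5.83%. Of 15 D genes with at least 1000 clones, Ighd1-3 alone passed the rule used for V genes (6.67% of those compared), with 16 recurring clones, or 0.919%, against 0.538% of single-library clones (ratio 1.71, 1.05 to 2.79). The small Ighd5 and Ighd6 families were called in 4 and 11 recurring clones. No D segment could be called in 7.35% and 5.45% (ratio 1.35, 1.14 to 1.60), and the aligned D segment averaged 11.4 and 11.7 bases. D calls of short segments are uncertain, and several calls name more than 1 D gene.

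The CDR3 of recurring clones was shorter by about 1 base. It averaged 37.1 bases (SD 7.35), against 38.2 (SD 7.30) in single-library clones, a difference of -1.04 bases (-1.39 to -0.695), and was shorter in 6 of 6 libraries. CDR3 sequences of at most 30 bases made up 21.0% of recurring and 17.2% of single-library clones, and those of at least 46 bases 11.0% and 13.4%. Among productive clones the mean was 36.9 and 37.9 bases. Over all clones the difference was near that in bases between segments, -1.22, but within classes the 2 differed in size. Productive clones differed by -1.03 bases in CDR3 length and by -1.60 between segments. Non-productive clones differed by -1.18 and -0.43, and clones with a D call by -0.781 and -1.21. With clones defined by J gene and CDR3 alone, the CDR3 difference was -1.83 bases.

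Many nucleotide forms of 1 CDR3 protein sequence were found more often where a form recurred. Different base sequences can encode the same amino acids, so that several forms of 1 CDR3 mark separate rearrangements or base changes within 1. Productive clones made up 162654 combinations of V gene, J gene and CDR3 amino acid sequence. Of the 1184 combinations with a recurring form, 93 (7.85%) had 2 or more nucleotide forms, against 700 of 161470 (0.434%) without one. A combination with more forms had more chances to hold a recurring one, so the grouping itself raises the first share. How much of the difference this makes was not tested. Of these 1184 combinations 18 had 2 or more forms that each recurred. Counting only sequences marked productive, 1667 combinations were found in 2 or more libraries, of which 491 had no single nucleotide form in more than 1 library and 1176 had one. The other 8 of the 1184 were in 1 library on this count, since copies of their clone differed in the productive mark or in the amino acid call.

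The combination with the most forms was Ighv12-3 to Ighj1 with the CDR3 AGDRTGYWYFDV, with 6 forms, 18 sequences and 5 libraries. Of the 6 forms 4 recurred. They are shown with the bases at which the forms differ in capitals.
form 1: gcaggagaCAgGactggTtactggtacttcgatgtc
form 2: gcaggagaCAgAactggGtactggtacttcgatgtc
form 3: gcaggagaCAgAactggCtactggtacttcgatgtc
form 4: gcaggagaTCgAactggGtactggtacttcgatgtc
form 5: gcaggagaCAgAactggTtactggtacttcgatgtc
form 6: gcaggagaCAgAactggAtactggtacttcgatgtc
Forms 1 to 4 had 6, 5, 3 and 2 sequences in 3, 3, 2 and 2 libraries, and forms 5 and 6 had 1 each. The forms differed from each other at 1 to 4 bases, at 4 positions in all, and had 0 to 3 bases between segments.

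Ighv11-2 to Ighj1 with MRYGGYWYFDV had 4 forms in 5 libraries and 38 sequences, of which 30 belonged to 1 form.
first form: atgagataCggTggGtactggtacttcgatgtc
second form: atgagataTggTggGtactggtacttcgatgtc
The first form had 30 sequences in 5 libraries and the second 6 in 3 libraries, and both recurring forms differ in 1 capital. Ighv6-3 to Ighj1 with TGGYFDV, a CDR3 of 7 amino acids, had 4 forms and 16 sequences, with 3 forms that recurred and no D call. Ighv1-55 to Ighj1 with ARRYYGSSYWYFDV had 4 forms, 2 of which recurred.

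The other 6 of the 10 combinations with the most forms had 4 forms each, 3 of them with 1 recurring form and 3 with none. Those with 1 were Ighv6-6 to Ighj3 with TRRDGPFAY (14 sequences), Ighv1-72 to Ighj3 with ARSYYGSSYGFAY (5) and Ighv3-6 to Ighj3 with ARDYYGSSYGFAY (5). Those with none were Ighv1-64 to Ighj1 with ASLLLLYTYFDV, Ighv1-64 to Ighj2 with ARPNYYGSSYYFDY and Ighv6-6 to Ighj3 with TRRPAWFAY, each with 4 sequences, so that their 4 forms were seen once each.

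Recurring clones also had more near copies. Another clone at 1 base distance, with V gene, J gene and CDR3 length in common, was found for 18.3% of recurring and 1.77% of single-library clones (ratio 10.3, 9.28 to 11.4). A larger clone at 1 base distance was found for 45 recurring clones (2.58%) and 0.218% of single-library clones. Recurring clones held more sequences each by selection, 5834 over 1741 clones, against 222758 over 221096 for single-library clones. Whether the number of near copies follows the number of sequences was not tested. V segments with an identity to germline under 0.98 were found in 3.33% and 1.68%, a difference that lay in productive clones (2.73% and 0.458%) and not in non-productive ones (4.68% and 5.04%). Primer tags marked unclear (11.3% and 11.7%) and reads per sequence (10.3 and 9.99 on average) were close, and V calls that name several genes were fewer among recurring clones (8.16% and 11.2%).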

How the data were processed

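Each deposited file holds 1 row per deduplicated sequence of 1 library, with V, D and J calls, a productive and a frame flag, segment lengths in bases and the CDR3, per the file headers. The identity of the V segment to germline is a fraction from 0 to 1 as deposited by the authors, per the file headers. Trim Galore 0.4.4 and Bowtie2 2.3.2 are named in the submitters' processing notes, as is the build mm10. No source used here names the tool that called the segments. Molecular identifiers were read from the sequence names, and their trailing number was taken as the reads per sequence, an inference from the values.

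Clones were built from the first V gene (allele removed), the first J gene and the CDR3 bases, and 17 sequences without a CDR3 were left out. In each library 10.3% to 12.1% of sequences had a call with several V genes, so near-identical V genes are uncertain. The features of a clone are those of its first sequence. Shares carry Wilson or, for single clones, exact intervals, ratios Katz intervals, and differences normal-approximation intervals. With 1 library per group, and since clones are not replicates, no p-value is given. V genes named are the 10 with the highest share of recurring clones, those past the rule, and Ighv11-2, Ighv12-3, Ighv5-2, Ighv7-1 and Ighv1-72. Coordinates are from RefSeq GRCm38.p6, the same build as mm10. The clones, gene lists and rules were chosen with earlier results of these data known. Alternatives changed the clone definition, sequences entered, depth, libraries and V gene rule. Analyses ran in Python 3.11.15 with pandas 2.3.3, NumPy 2.4.6 and SciPy 1.17.1.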

Additional observations from a re-analysis of the deposited data

How the results depend on the processing

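No paired analysis was possible because each group is 1 library. With each library left out in turn, recurring clones numbered 641 to 1589, the productive difference ran from -4.84 to -2.49 points, the ratio of joints with 0 bases from 5.62 to 7.39, the CDR3 difference from -1.22 to -0.937 bases, the ratio for Ighv11-2 and Ighv12-3 from 4.74 to 7.07, and 6 to 18 V genes passed the fold rule. With clones defined by J gene and CDR3 alone, 3217 clones recurred and these values were 8.18 points (reversed), 7.64, -1.83 bases, 2.46 and 24. With every library thinned to 8701 sequences (mean of 100 draws) they were 227 clones, -0.00806 points, 7.93, -1.13 bases, 11.3 and 0.150 V genes, with fewer clones per V gene to compare. Within the polymerase libraries they were 80 clones, -8.32 points, 10.2, -2.09 bases, 9.99 and 0 V genes, of which 2 had enough clones, and within the input libraries 11 V genes passed. Among clones with at most 1 copy per library the ratio for Ighv11-2 and Ighv12-3 was 2.39 and 11 V genes passed. A minimum of 2000 clones left 11 V genes and a fold of 2 left 8. Alternatives chosen after seeing the data moved 4 values: among productive clones the ratio of joints with 0 bases was 7.02, that of Ighv11-2 and Ighv12-3 was 31.7 and 11 V genes passed, and the held-out share was 6.35% among clones with at most 1 copy per library. It was 66.3% when the polymerase libraries defined recurrence. The cause of these changes was not tested. Depth limits every count, and the smallest library held 249 recurring clones.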
